A study of Mus musculus with 8 samples.

Results

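The 37 aminoacyl-tRNA synthetase genes of a table of 21899 mouse protein-coding genes were examined in mesenchymal stem cells cultured from mouse femoral bone marrow. They were chosen by gene name alone, as every name built from a 1-letter amino acid code and "ars" with or without a final 1 or 2, together with Farsa, Farsb and Eprs. Of these, 20 encode cytosolic enzymes and 17, whose names end in 2, encode mitochondrial ones. Tarsl2, a relative of the threonyl enzyme, falls outside the naming rule and was treated as a partner gene. In the EA group, cells received 10 µM ellagic acid (EA), a plant polyphenol, for 48 h, and in the Control group they received an equal dose of the solvent DMSO for 48 h. Poly(A) RNA was sequenced in 4 libraries per group, numbered 1 to 4. Neither the mouse strain nor the age of the animals is given in the sources used here. Nothing in the labels tells whether each library had its own animal or culture. The p-values therefore measure the spread between 4 and 4 libraries, and that spread may be technical.

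Aminoacyl-tRNA synthetases attach each amino acid to its own tRNA, the step that makes the genetic code readable by the ribosome. Cells keep separate sets for the cytosol and for mitochondria, and the mitochondrial enzymes are encoded in the nucleus and imported. Several cytosolic enzymes are held together with scaffold proteins in the multi-synthetase complex, and the others work on their own. Many cytosolic synthetase genes are known targets of ATF4, the transcription factor that cells use in amino acid shortage and other stress. In bone-forming cells ATF4 is known to favour amino acid uptake and protein synthesis.

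Total counts ranged from 14112519 to 17390200 reads in EA libraries and from 14654286 to 16637984 in Control libraries. Every one of the 37 genes had enough reads to be tested, with 617 to 8490 reads per EA library and 887 to 15922 per Control library for cytosolic enzymes. Mitochondrial enzymes had 23 to 1063 reads per EA library and 51 to 1296 per Control library, and the standard errors of their log2 fold changes were wider, with a median of 0.10 against 0.06 for cytosolic enzymes. Of 10 mesenchymal stromal markers 9 could be tested, of which 5 were higher and 3 lower with EA under TMM scaling, beside 33.1% higher and 34.2% lower over all tested genes, and 3 were higher and 4 lower with library totals. The summed level of all 10 was 3010 to 3134 CPM (counts scaled by the plain library total, for summed markers only) in EA and 2787 to 3035 CPM in Control. This sum hides larger moves of single markers. Under TMM scaling Pdgfra was 4.59-fold and Pdgfrb 2.74-fold higher with EA, and Ly6a was 2.82-fold lower. Thy1, one of the usual markers of these cells, was close to absent, at 0.130 ± 0.122 CPM in EA and 0.172 ± 0.129 CPM in Control (SD, n = 4 each). The 7 haematopoietic markers summed to 0.937 to 2.40 CPM in EA against 1.98 to 2.71 CPM in Control, with Cd3e at 0 in all 8 libraries, and the 4 endothelial and 4 erythroid markers were as low, with endothelial sums of 0.779 to 1.13 CPM in EA against 1.42 to 2.20 CPM in Control, and erythroid sums of 0.496 to 3.28 CPM in EA against 0.819 to 2.46 CPM in Control. In bulk samples, fewer cells of a type and less RNA per cell cannot be told apart.

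Synthetase transcripts were lower with EA in both compartments. Cytosolic enzymes took 0.378 ± 0.0214% of all reads in EA libraries and 0.669 ± 0.0194% in Control libraries, and mitochondrial enzymes 0.0289 ± 0.00155% in EA and 0.0462 ± 0.000365% in Control (SD, n = 4 each). Together the 37 genes took 0.390 to 0.440% of all reads in EA libraries, against 0.691 to 0.736% in Control libraries, and these ranges did not overlap. By edgeR's quasi-likelihood test, Benjamini-Hochberg adjusted over 11777 genes after TMM scaling, 26 of the 37 fell at an adjusted p under 0.05, 1 rose and 10 did not pass. Over all tested genes 34.2% fell and 33.1% rose by the same rule, so 67.2% passed in either direction. The median log2 fold change of the 37 was −0.37, against −0.02 for all tested genes, and 6 of the 37 values were above 0, against 48.8% of all tested genes. Most changes were modest, and only Vars2 and Cars fell at least 2-fold, a size that 8.69% of all tested genes reached. EA and Control libraries did not overlap in scaled level for 26 of the 37, against 60.6% of all tested genes.

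How libraries were scaled sets the size of these changes. TMM factors, built on the premise that the bulk of genes does not move, were 0.878 to 0.885 in EA against 1.13 to 1.14 in Control. With library totals alone, 35 of 37 genes were lower and none higher, against 61.1% lower and 16.5% higher over all tested genes, and the median of the 37 was −0.73 against −0.38 for all tested genes. That scaling moved the median of all tested genes by −0.36. Relative to the median of all genes, the largest move of a synthetase gene between these scalings was 0.00112 on the log2 scale. Fold changes are given with TMM scaling unless library totals are named.

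**Figure D1:**
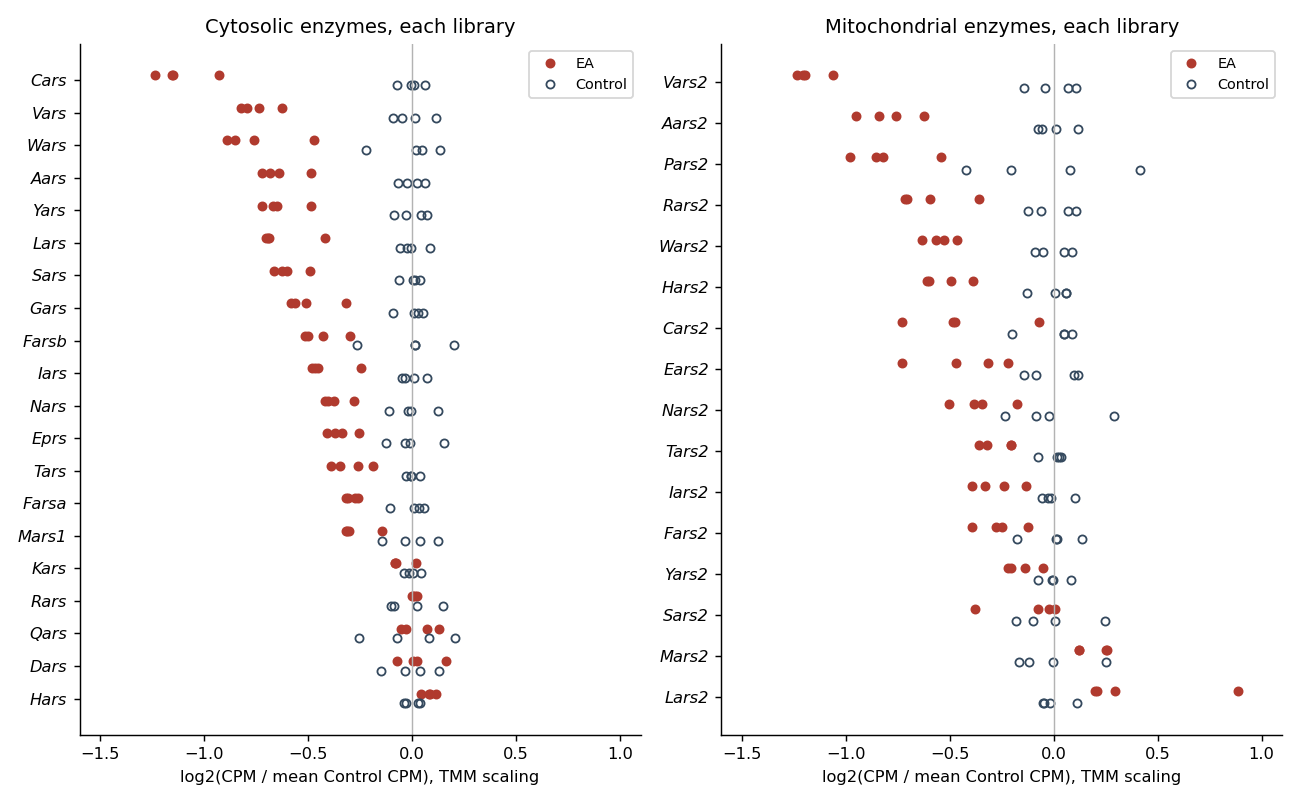
Level of the synthetase genes in each library, as log2 of CPM over the mean Control CPM (TMM scaling), with cytosolic enzymes left and mitochondrial enzymes right, ordered by fold change. Filled points are the 4 EA libraries and open points the 4 Control libraries; in the cytosolic panel EA points lie left of all Control points from Cars down to Mars1, and the EA 4 point of Lars2 stands far to the right.

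Among the 20 cytosolic enzymes 15 fell, none rose and 5 did not pass, beside 34.2% lower and 33.1% higher over all tested genes, with a median log2 fold change of −0.39. Unadjusted, the same 15 of the 20 had p under 0.05 and none was higher. At least 34.2% of all tested genes were lower by this looser rule and at least 33.1% higher, since every adjusted call passes it. Neither DESeq2 nor limma voom called a cytosolic enzyme higher. The largest fall was that of Cars, which encodes the cysteinyl enzyme (chromosome 7, 143110967 to 143153827, build GRCm39). Cars had 1240, 1280, 1538 and 1639 reads in EA libraries 1 to 4, against 4048, 3512, 3950 and 4157 in Control libraries 1 to 4. Every EA library was far below every Control library, and the mean level was 103 ± 9.70 CPM in EA and 222 ± 8.57 CPM in Control (SD, n = 4 each). Its log2 fold change was −1.11 ± 0.06 (SE, adjusted p = 4.56e-12), a 2.16-fold lower level.

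Vars, the gene of the valyl enzyme, had 2413, 2748, 2928 and 3066 reads in EA libraries, against 6347, 5416, 5596 and 6384 in Control libraries. It fell by 0.74 ± 0.06 on the log2 scale (adjusted p = 8.27e-10) with no overlap between groups. Wars makes the tryptophanyl enzyme, whose gene is also known as interferon-inducible. For Wars the counts were 980, 1171, 1247 and 1483 reads in EA and 2581, 2509, 2221 and 3008 in Control, and the level fell by 0.73 ± 0.09 (adjusted p = 2.03e-06). EA library 4 was the highest EA library for Wars, at 105 CPM, and still lay below the lowest Control library at 125 CPM.

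Aars, which charges alanine, had 6299, 7276, 7976 and 8370 reads in EA libraries and 15183, 13646, 14087 and 15922 in Control libraries. It was 1.55-fold lower, with a log2 fold change of −0.63 ± 0.06 (adjusted p = 5.55e-09). Exosc6, an exosome subunit gene that lies on the same strand over 1326 bases of Aars, was listed at 0 reads in all 8 libraries, and how reads of the shared stretch were assigned is not stated. Yars, the tyrosyl enzyme gene, counted 1548, 1754, 2006 and 2057 reads in EA and 3757, 3335, 3412 and 3957 in Control and fell by 0.63 ± 0.06 (adjusted p = 1.58e-08). Lars, for leucine, had 2140, 2350, 2632 and 2930 reads in EA and 4777, 4608, 4733 and 5544 in Control and fell by 0.62 ± 0.06 (adjusted p = 4.57e-08). The log2 fold changes of Aars, Yars and Lars lay within 1 SE of each other, and in each of them the EA and Control libraries were apart.

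Sars, the seryl enzyme gene, had 4831, 5374, 5818 and 5993 reads in EA libraries, against 10736, 10074, 10660 and 10774 in Control libraries, a fall of 0.59 ± 0.05 (adjusted p = 3.95e-09). Gars encodes the glycyl enzyme of both the cytosol and mitochondria and was the most abundant of all 37 per length. Its counts were 6334, 7180, 7738 and 8490 reads in EA and 13207, 12750, 12476 and 14619 in Control, and it fell by 0.49 ± 0.06 (adjusted p = 5.05e-07). Farsa and Farsb, the alpha and beta subunits of the phenylalanyl enzyme, fell by 0.29 ± 0.06 and 0.43 ± 0.08 (adjusted p = 0.000445 and 0.000153). The remaining falls were those of Iars for isoleucine at −0.41, Nars for asparagine at −0.37, Eprs for glutamate and proline at −0.34, Tars for threonine at −0.29 and Mars1 for methionine at −0.27 (adjusted p = 5.32e-06 to 0.00101).

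The 5 cytosolic genes that did not pass had fitted changes close to that of the median gene. Kars, the lysyl enzyme gene that serves both compartments, averaged 178 ± 6.08 CPM in EA and 185 ± 4.35 CPM in Control, a log2 fold change of −0.05 ± 0.05 (adjusted p = 0.377). For Rars, the arginyl enzyme gene, the means were 122 ± 0.915 CPM in EA and 121 ± 9.87 CPM in Control. Qars for glutamine averaged 57.6 ± 3.42 CPM in EA and 56.4 ± 7.70 CPM in Control, and Dars for aspartate 94.5 ± 6.51 CPM in EA and 92.5 ± 7.55 CPM in Control. Their log2 fold changes were 0.01 ± 0.06, 0.03 ± 0.08 and 0.03 ± 0.07 (adjusted p = 0.897, 0.760 and 0.696). Hars, for histidine, had levels between 67.1 and 70.5 CPM in EA and between 63.2 and 66.8 CPM in Control, so the groups were apart by a narrow margin, but its change of 0.08 ± 0.06 did not pass (adjusted p = 0.227). With library totals all 5 were lower and past the threshold, at −0.42 for Kars, −0.35 for Rars, −0.33 for Qars and Dars and −0.28 for Hars.

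**Figure D2:**
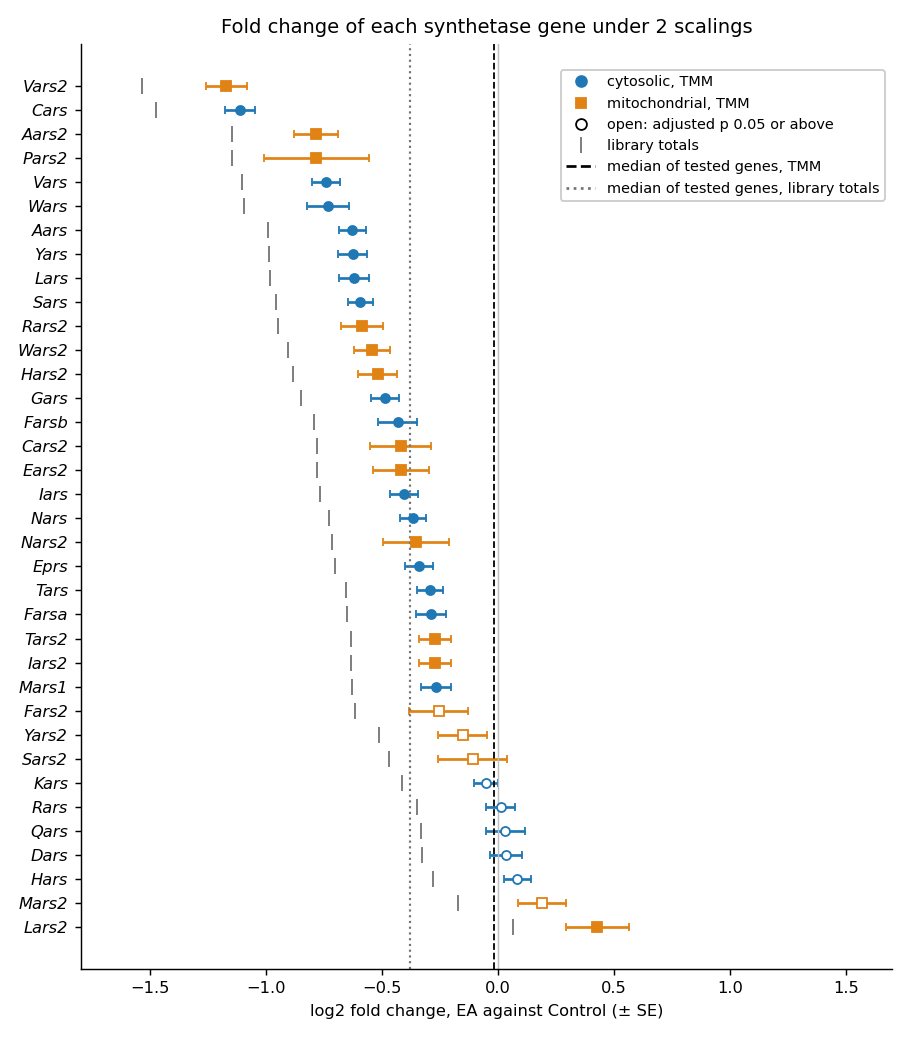
Log2 fold change of EA against Control for the synthetase genes with TMM scaling (points, ± SE) and with library totals (grey ticks), in order from the largest fall at the top, with the median of all tested genes under each scaling as vertical lines. Open points have an adjusted p of 0.05 or above; the grey ticks lie at a nearly fixed distance left of the points.

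The cytosolic genes were next divided by role. A list of 12 cytosolic genes commonly described as ATF4 targets (Aars, Cars, Eprs, Gars, Iars, Lars, Mars1, Nars, Sars, Tars, Wars and Yars) had 12 lower members, with a median log2 fold change of −0.54 and a range of −1.11 to −0.27. Of the other 8 cytosolic genes 3 were lower (Vars, Farsa and Farsb), with a median of −0.02. With upper-quartile factors 5 of the 8 were lower, beside 45.3% of all tested genes. The list was written from general knowledge when it was already known that ATF4 and several of its targets are lower in these libraries, so it is not independent evidence of a direction. Both counts with TMM scaling stand beside 34.2% lower over all tested genes. With library totals, the counts were 12 of 12 and 8 of 8, beside 61.1%. Atf4 itself was lower by 1.03 ± 0.05 on the log2 scale, and of 12 genes of the ATF4 pathway 7 were lower and 2 higher (Nupr1 at 0.41 and Phgdh at 0.17), beside 34.2% lower and 33.1% higher over all tested genes. With library totals 10 were lower and none higher: Phgdh turned to −0.20 and passed as lower (adjusted p = 0.00280), and Nupr1, at 0.05, did not pass (adjusted p = 0.561). Chac1, Ddit3 and Sesn2 had the smallest p among the lower ones, at −4.28, −2.75 and −1.36, while Cebpb averaged 97.9 ± 42.4 CPM in EA and 37.4 ± 21.4 CPM in Control and did not pass (adjusted p = 0.0516). DESeq2 and limma voom each gave 3 higher genes in this list instead of 2.

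Promoter sequences, from RefSeq on build GRCm38.p6 and spanning 250 bases before to 50 after the start of the gene, were matched for 27 of the 37 genes, 13 cytosolic and 14 mitochondrial. They were searched on both strands for TGATGNAA, the core of the C/EBP-ATF response element to which ATF4 is known to bind, in which N stands for any base. The motif occurred in 5 of 13 cytosolic promoters and in 0 of 14 mitochondrial ones, against 4.51% of all 27025 genes with such a promoter. All 5 belong to the 8 genes of the ATF4 list whose promoter was matched. A match describes letters in this window and is neither a binding site nor a cause, and no match says only that these letters are not in this window. The 5 promoters that hold the motif are shown first, each from 5′ to 3′ on the strand of its gene, with the motif or its reverse complement in capitals, and that of Vars2, the gene with the largest fall of all 37, is shown last as one without it.
Aars (chr8:111033592-111033891, plus strand): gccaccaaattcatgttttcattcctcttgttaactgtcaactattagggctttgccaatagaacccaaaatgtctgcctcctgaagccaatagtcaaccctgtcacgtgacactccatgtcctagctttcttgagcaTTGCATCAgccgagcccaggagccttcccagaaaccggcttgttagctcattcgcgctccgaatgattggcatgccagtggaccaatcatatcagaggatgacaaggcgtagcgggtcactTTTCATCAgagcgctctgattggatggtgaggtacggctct
Yars (chr4:129189653-129189952, plus strand): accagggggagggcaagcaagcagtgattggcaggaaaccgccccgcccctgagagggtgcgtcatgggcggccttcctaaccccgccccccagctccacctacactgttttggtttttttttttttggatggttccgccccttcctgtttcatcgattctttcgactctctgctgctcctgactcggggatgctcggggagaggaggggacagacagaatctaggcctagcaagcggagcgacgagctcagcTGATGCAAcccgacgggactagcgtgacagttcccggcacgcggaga
Iars (chr13:49681880-49682179, plus strand): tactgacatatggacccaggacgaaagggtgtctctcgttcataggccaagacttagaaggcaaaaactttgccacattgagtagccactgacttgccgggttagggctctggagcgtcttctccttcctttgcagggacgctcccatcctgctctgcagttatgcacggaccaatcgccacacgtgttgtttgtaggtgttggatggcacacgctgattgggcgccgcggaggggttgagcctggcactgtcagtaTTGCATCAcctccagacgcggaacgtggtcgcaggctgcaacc
Tars (chr15:11399609-11399908, minus strand): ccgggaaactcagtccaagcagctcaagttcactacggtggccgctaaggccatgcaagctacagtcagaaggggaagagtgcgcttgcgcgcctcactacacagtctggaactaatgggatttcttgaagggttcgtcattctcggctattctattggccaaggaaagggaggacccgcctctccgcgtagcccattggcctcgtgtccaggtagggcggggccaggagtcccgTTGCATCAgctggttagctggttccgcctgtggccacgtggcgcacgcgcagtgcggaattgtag
Gars (chr6:55037751-55038050, plus strand): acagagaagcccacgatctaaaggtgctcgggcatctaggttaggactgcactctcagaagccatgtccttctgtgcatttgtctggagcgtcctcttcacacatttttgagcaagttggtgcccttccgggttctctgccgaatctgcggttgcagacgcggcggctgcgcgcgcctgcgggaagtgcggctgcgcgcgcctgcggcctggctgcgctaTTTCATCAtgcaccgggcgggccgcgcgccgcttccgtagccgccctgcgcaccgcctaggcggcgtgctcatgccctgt
Vars2 (chr17:35667543-35667842, minus strand): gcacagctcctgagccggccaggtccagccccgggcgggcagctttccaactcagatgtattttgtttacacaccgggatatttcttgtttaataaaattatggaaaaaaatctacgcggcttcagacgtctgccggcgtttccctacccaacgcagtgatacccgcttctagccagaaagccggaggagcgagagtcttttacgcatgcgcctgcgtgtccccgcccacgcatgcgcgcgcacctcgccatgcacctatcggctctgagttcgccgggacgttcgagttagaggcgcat

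The capitals read TGATGCAA on the forward strand in Yars and on the reverse strand in Iars, Tars and the upstream copy in Aars, and TGATGAAA on the reverse strand in Gars and the downstream copy in Aars. Counted from the start of the gene, their first base lay at −112 and 10 in Aars, at 4 in Yars, at 8 in Iars, at −15 in Tars and at −30 in Gars. The 5 genes fell by 0.63 (Aars), 0.63 (Yars), 0.49 (Gars), 0.41 (Iars) and 0.29 (Tars). Sars, Eprs and Mars1, members of the ATF4 list whose window lacks the motif, fell by 0.59, 0.34 and 0.27.

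Position in the multi-synthetase complex gave another division. Of the 8 complex enzymes 4 were lower (Eprs, Iars, Lars and Mars1) and 4 did not pass (Dars, Kars, Qars and Rars), with a median of −0.16. Among the 12 free cytosolic enzymes 11 were lower and Hars did not pass, with a median of −0.54. Both counts stand beside 34.2% lower over all tested genes. This division of calls depends on the scaling. With library totals 8 of 8 complex and 12 of 12 free enzymes were lower, beside 61.1% of all tested genes. With upper-quartile factors 6 of 8 and 11 of 12 were lower, beside 45.3% of all tested genes. The lists of ATF4 targets and of free enzymes share 8 genes, so these divisions are not separate. Of the scaffold proteins of the complex, Eef1e1 (also called AIMP3) was lower by 0.27 ± 0.08 (adjusted p = 0.00587) and Aimp1 by 0.16 ± 0.07 (adjusted p = 0.0411), and Aimp2 was at 20.9 ± 1.02 CPM in EA and 19.4 ± 2.10 CPM in Control (adjusted p = 0.347). Of the 3 scaffold proteins 1 rather than 2 was lower with DESeq2, at an adjusted p under 0.01, and without EA library 1, 2 or 3 or Control library 2 or 4. By catalytic class, with the bifunctional Eprs left aside, 13 of 18 class I enzymes were lower and Lars2 was higher (median −0.42), and 12 of 18 class II enzymes were lower and none higher (median −0.32), beside 34.2% lower over all tested genes.

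**Figure D3:**
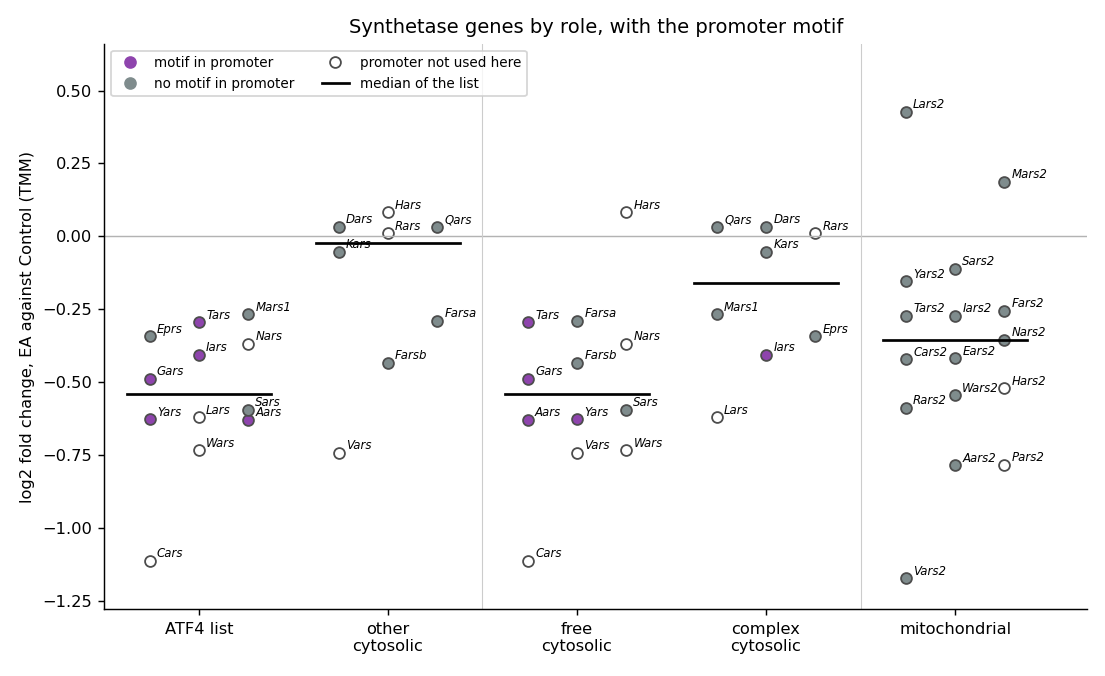
Log2 fold change of EA against Control (TMM scaling) for synthetase genes grouped by role, with the cytosolic genes shown once by the ATF4 list and once by complex membership; horizontal bars are medians over all genes of a list. Purple points have TGATGNAA in the promoter window, grey points do not, and open points have no promoter used here; the purple points lie between −0.63 and −0.29, all in the ATF4 list.

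Of the 17 mitochondrial enzymes 11 fell, 1 rose and 5 did not pass, beside 34.2% lower and 33.1% higher over all tested genes, with a median log2 fold change of −0.35. Vars2, the mitochondrial valyl enzyme gene (chromosome 17, 35966526 to 35978484, build GRCm39), had 182, 204, 230 and 232 reads in EA libraries, against 648, 600, 552 and 628 in Control libraries. At 15.3 ± 0.837 CPM in EA and 34.5 ± 2.68 CPM in Control (SD, n = 4 each), it was 2.25-fold lower, with a log2 fold change of −1.17 ± 0.09 (adjusted p = 2.63e-10). Thus both valyl genes fell, and both lie on chromosome 17. Aars2, for mitochondrial alanine, had 158, 186, 245 and 204 reads in EA and 464, 392, 438 and 437 in Control and fell by 0.79 ± 0.10 (adjusted p = 4.10e-07).

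Rars2, the mitochondrial arginyl enzyme gene, counted 293, 295, 336 and 390 reads in EA libraries and 596, 620, 579 and 719 in Control libraries, a fall of 0.59 ± 0.09 (adjusted p = 8.62e-06). Wars2, for tryptophan, had 283, 324, 394 and 344 reads in EA and 594, 607, 665 and 623 in Control and fell by 0.55 ± 0.08 (adjusted p = 3.70e-06). Hars2, for histidine, had 245, 312, 305 and 300 reads in EA and 479, 502, 554 and 587 in Control and fell by 0.52 ± 0.09 (adjusted p = 1.84e-05). In these 3 genes no EA library reached the level of a Control library. Tars2, for threonine, was nearer to Control, with 478, 508, 641 and 586 reads in EA and 846, 758, 865 and 925 in Control and a fall of 0.27 ± 0.07 (adjusted p = 0.00156).

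Pars2, for proline, was the least counted gene of the 37, with 23, 34, 31 and 29 reads in EA libraries and 55, 64, 86 and 51 in Control libraries, and its fall of 0.78 ± 0.23 (adjusted p = 0.00449) is the least precise. Cars2, Ears2 and Iars2, for cysteine, glutamate and isoleucine, fell by 0.42 ± 0.13, 0.42 ± 0.12 and 0.27 ± 0.07. Nars2, for asparagine, had 91, 86, 100 and 82 reads in EA and 142, 117, 138 and 190 in Control and fell by 0.35 ± 0.14 (adjusted p = 0.0346). Of these, Cars2 and Nars2 had overlapping groups. Nars2 was not past the threshold without EA library 2 (adjusted p = 0.0705), EA library 3 (0.0633), EA library 4 (0.0940), Control library 1 (0.0552) or Control library 4 (0.153). Among the genes that did not pass were Fars2 at −0.26 ± 0.13, Yars2 at −0.15 ± 0.10, Sars2 at −0.11 ± 0.15 and Mars2 at 0.19 ± 0.10 (adjusted p = 0.0812 to 0.529). Mars2 passed as higher without Control library 4, at 0.29 (adjusted p = 0.0139), and was at −0.17 with library totals (adjusted p = 0.131).

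Lars2, the mitochondrial leucyl enzyme gene, was the gene past the threshold in the other direction. It had 587, 680, 721 and 1063 reads in EA libraries 1 to 4, against 690, 734, 697 and 757 in Control libraries. Scaled, this was 47.2, 50.02, 46.9 and 75.6 CPM in EA and 39.6, 44.1, 39.4 and 40.3 CPM in Control, so that all EA libraries were above Control and EA library 4 stood well above the others. The log2 fold change was 0.43 ± 0.14 (adjusted p = 0.0160). Without EA library 4 it was 0.24 (adjusted p = 0.00872), and without Control library 1 or 4 it was not past the threshold, at 0.42 (adjusted p = 0.0517) and 0.43 (adjusted p = 0.0926). Without the filter on low counts it was 0.42 (adjusted p = 0.0784). With library totals it was 0.06 (adjusted p = 0.673), so its share of reads did not pass. No GENCODE M21 transcript of any of the 37 genes, Lars2 included, matched a mitochondrial ribosomal RNA in a search with blastn at an E-value of 1e-05. Without Lars2, 11 of the 16 other mitochondrial genes were lower, none was higher and the median was −0.39.

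EA library 4 was the highest EA library for 24 of the 37 genes and for 17 of the 20 cytosolic ones. Without it, 25 genes were lower and 1 higher, a change of 1 gene (Nars2) in the first count. Over all tested genes 32.8% were lower without EA library 4. EA library 4 also had the lowest share of reads from the mitochondrial genome among EA libraries, at 2.32%. That share was 2.68 to 2.73% in EA libraries 1 to 3 and 1.80 to 2.22% in Control libraries. The part of that share in the results was not tested.

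A ratio of cytosolic to mitochondrial reads for the same amino acid does not depend on how libraries are scaled. Over 18 such pairs the EA libraries lay below Control without overlap in 4, above it in 3 and overlapped it in 11. Fars2 was set against both Farsa and Farsb, and Eprs against both Ears2 and Pars2, so the 18 pairs are not all separate. Between any 2 tested genes, such a ratio parted the groups in 61.3% of all pairs, or in 30.6% with EA below for a given order of the pair. The median difference over the 18 pairs was −0.03 on the log2 scale, with a range of −1.02 to 0.60. No p-value was computed for these ratios.

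Among the pairs in which EA was below Control, Lars/Lars2 had ratios of 2.76 to 3.65 in EA against 6.27 to 7.32 in Control. Cars/Cars2 was at 7.13 to 14.0 in EA against 15.5 to 17.5 in Control, Yars/Yars2 at 11.34 to 11.997 in EA against 15.7 to 17.1 in Control, and Mars1/Mars2 at 7.20 to 8.07 in EA against 8.73 to 13.1 in Control. The reverse was seen for Rars/Rars2, with 4.43 to 5.58 in EA against 3.30 to 3.496 in Control. Hars/Hars2 was at 3.003 to 3.57 in EA against 2.04 to 2.30 in Control, and Vars/Vars2 at 12.7 to 13.4 in EA against 9.02 to 10.2 in Control. For arginine and histidine the mitochondrial gene fell and the cytosolic one did not pass, and for valine both fell, the mitochondrial one by more. Aars/Aars2 and Tars/Tars2 had overlapping groups, with log2 differences of 0.16 and −0.02.

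**Figure D4:**
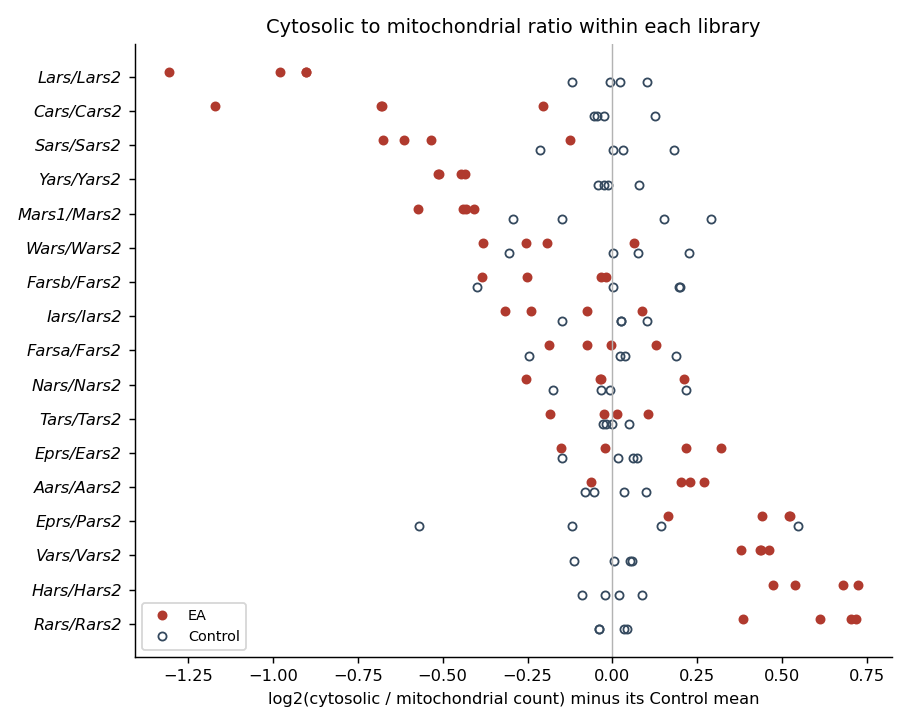
Log2 ratio of cytosolic to mitochondrial read count for the same amino acid in each library, minus the mean of the Control libraries, for 17 of the 18 pairs, ordered by difference. Filled points are EA and open points Control libraries. By mean difference Lars/Lars2 is farthest below Control and Rars/Rars2 farthest above it, and the groups overlap in 10 of the pairs drawn.

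Levels per length, from the authors' FPKM values, had a higher median among cytosolic than among mitochondrial enzymes in both groups. The mean levels of the compartments overlapped in Control but not in EA. Mean FPKM of the cytosolic genes ran from 7.74 to 151 in EA, with a median of 30.7, and from 9.74 to 273 in Control, with a median of 47.5. Mitochondrial genes ran from 0.6004 to 7.54 FPKM in EA (median 2.47) and up to 14.6 FPKM in Control (median 4.18). Summed over genes, cytosolic enzymes gave 746 ± 42.8 FPKM in EA and 1301 ± 36.7 FPKM in Control, and mitochondrial enzymes 48.3 ± 2.18 FPKM in EA and 82.3 ± 0.606 FPKM in Control (SD, n = 4 each). The mitochondrial part of the summed FPKM was 6.09 ± 0.177% in EA and 5.95 ± 0.139% in Control, with overlapping libraries. Counted in reads, without division by gene length, mitochondrial genes took a larger part of all synthetase reads with EA (7.11 ± 0.198%) than without (6.45 ± 0.184%). On that measure the groups were apart, since the lowest EA library (6.96%) exceeded the highest Control library (6.71%). Without Lars2 they overlapped, and the mitochondrial part was smaller in EA library 4 than in Control library 3. In EA library 4 the other mitochondrial genes took 0.0243% of all reads, beside 0.409% for cytosolic genes. The same shares in Control library 3 were 0.0419% and 0.644%. The balance between compartments therefore depends on the measure and, in reads, on Lars2. The most abundant genes were Gars at 151 ± 12.7 FPKM in EA and 273 ± 10.6 FPKM in Control, Nars at 81.5 ± 3.38 FPKM in EA and 135 ± 8.53 FPKM in Control, and Sars at 68.1 ± 3.34 FPKM in EA and 132 ± 4.21 FPKM in Control. Qars was the lowest cytosolic gene and Rars2 the highest mitochondrial one. In EA their levels were close, at 7.74 ± 0.467 FPKM for Qars and 7.54 ± 0.871 FPKM for Rars2, while in Control Qars was at 9.74 ± 1.37 FPKM and Rars2 at 14.6 ± 1.02 FPKM. FPKM divides by library totals and by the gene length in the table, so differences between groups on it follow the scaling by totals.

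**Figure D5:**
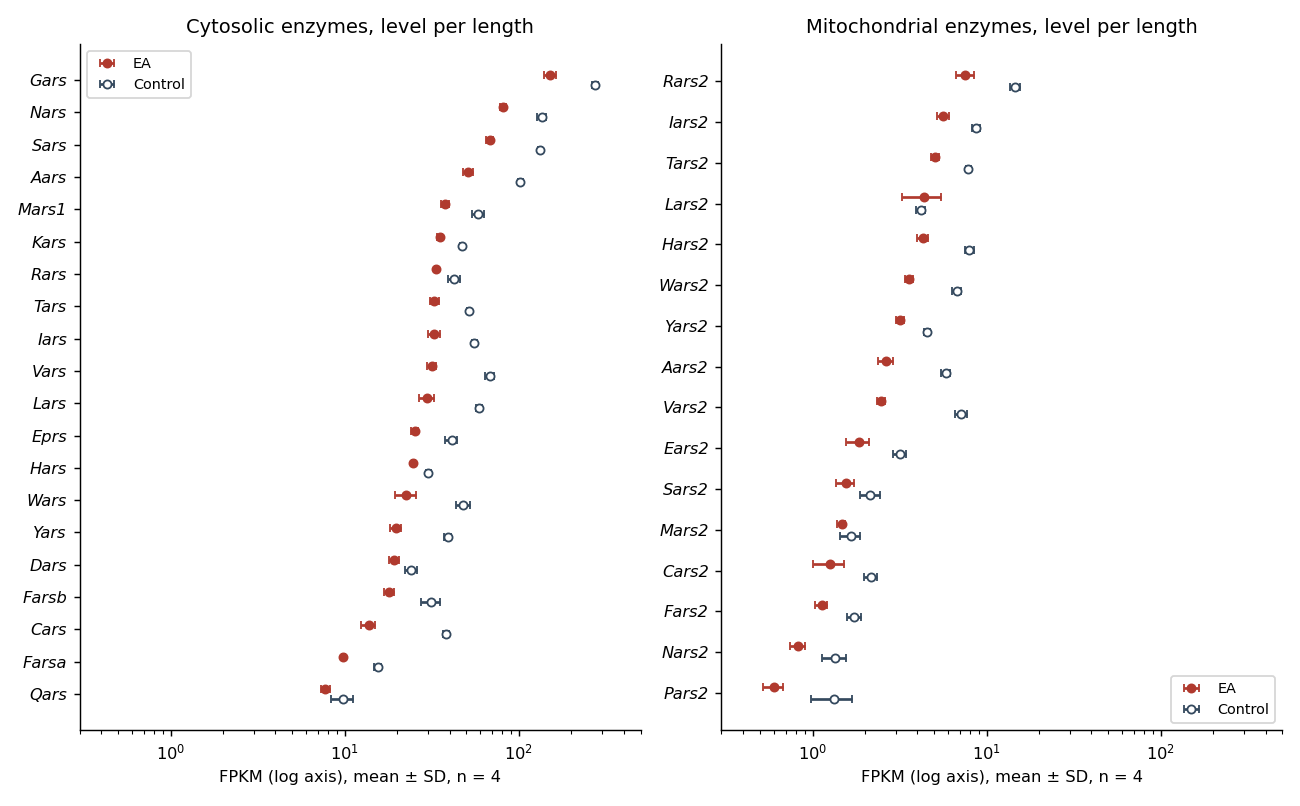
Mean FPKM with SD over 4 libraries per group for the synthetase genes on a logarithmic axis, cytosolic enzymes left and mitochondrial enzymes right, ordered by the EA mean. Filled points are EA and open points Control; Gars is highest at 151 FPKM in EA and 273 in Control, and Pars2 is lowest among EA means at 0.6004.

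Partner genes of the synthetases were examined next, against a background of 34.2% lower and 33.1% higher over all tested genes (61.1% and 16.5% with library totals). Of 12 tested genes that handle charged or exported tRNA, the 3 scaffold proteins among them, 8 were lower and none higher, with a median log2 fold change of −0.35, and Aarsd1, at 0.776 ± 0.250 CPM in EA and 0.484 ± 0.124 CPM in Control, had too few reads to be tested. Dtd2, a tRNA deacylase gene, fell by 0.76 ± 0.11, Xpot, the exporter of tRNA from the nucleus, by 0.41 ± 0.06, and the peptidyl-tRNA hydrolase gene Ptrh2 by 0.43 ± 0.09 (adjusted p = 5.34e-06 to 0.000172). Tarsl2, the threonyl relative, averaged 9.95 ± 0.850 CPM in EA and 14.5 ± 2.14 CPM in Control and was lower too (adjusted p = 0.000498). Of 10 mitochondrial partners 7 were lower and 1 higher, with a median of −0.46. With library totals 12 of the 12 charging partners and 9 of the 10 mitochondrial partners were lower and none was higher. Subunits of the amidotransferase that makes mitochondrial glutaminyl-tRNA moved in opposite directions. Gatc was lower by 0.66 ± 0.09 and Qrsl1 by 0.49 ± 0.13 (adjusted p = 2.82e-06 and 0.00206), while Gatb was higher by 0.58 ± 0.11 (adjusted p = 0.000129), at 19.1 ± 2.37 CPM in EA and 12.8 ± 1.51 CPM in Control. With library totals Gatb was at 0.22 and not past the threshold (adjusted p = 0.0848). Gfm2, a ribosome recycling factor, and Mtfmt, which formylates the initiator methionyl-tRNA, fell by 0.55 ± 0.10 and 0.56 ± 0.12.

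Cytosolic elongation factors, which bring charged tRNA to the ribosome or move it along, went the other way under TMM scaling. Of 6 tested, 4 were higher and none lower, with a median of 0.21, beside 33.1% higher over all tested genes. Eef2 was at 5965 ± 144 CPM in EA and 4521 ± 344 CPM in Control and rose by 0.40 ± 0.06, Eef1a1 was at 11007 ± 93.9 CPM in EA and 9091 ± 478 CPM in Control and rose by 0.28 ± 0.05, and Eef1d rose by 0.24 ± 0.05 (adjusted p = 3.67e-06 to 0.000492). This direction did not hold with library totals, where the median was −0.15 with 4 of 6 lower and none higher, or on log2(FPKM + 1) values, where it was −0.15. With upper-quartile factors 1 of 6 was higher and 1 lower, with a median of 0.06. Of all 11777 tested genes 2830 were higher and 5338 lower with those factors. Their median lay above that of all tested genes with TMM scaling and with library totals, and the median of the synthetases lay below it.

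Several synthetase genes overlap other genes in the table, and the strand setting of the counts is not given in the sources used here, so reads in shared stretches cannot be assigned with certainty. Hars and Hars2 share 198 bases on opposite strands. Mars1 shares 68 bases with Ddit3, which encodes the stress factor CHOP and fell by 2.75 on the log2 scale, and Iars2 shares 2034 bases with Rab3gap2, which rose by 0.36. In all, 11 of the 37 overlap another gene, 10 of them one on the opposite strand. In GENCODE M21 transcripts 13 of the 37 share a stretch of at least 150 bases at 97% identity or more with another gene, mostly an overlapping one. Cars shares 214 bases with the processed pseudogene Gm15580, so its count could include or lose reads of that copy. Vars2 shares 339 bases with the antisense gene Gm20483, so the count of Vars2 could likewise include or lose reads.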

How the data were processed

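The authors deposited raw read counts per gene. The submitters' processing notes list cutadapt 1.15, HISAT2 2.0.5 and build GRCm39 of the mouse genome. Which counter, strand option and annotation they used is not given in the sources used here. Deposited FPKM values came from the authors, and recomputing them from count, gene length and column total gave a largest relative deviation of 5.17e-15.

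EA was tested against Control with edgeR 4.0.16 (R 4.3.3): TMM factors, filterByExpr by group, robust quasi-likelihood dispersions and F tests over 11777 genes, Benjamini-Hochberg adjusted. An SE is the absolute log2 fold change over the root of the F statistic. CPM use TMM scaling, except for summed markers. Alternatives used DESeq2 1.42.0, limma 3.58.1, other scaling factors, filters and thresholds, the replicate number as a block, and each library left out in turn. Pair ratios used counts plus 0.5. Figures were drawn with matplotlib 3.10.9.

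The members and gene lists were chosen with earlier results of these data known. Other members may be named; counts per library are printed for the 8 cytosolic and 6 mitochondrial genes with the smallest p, and for Pars2, Nars2 and Lars2, chosen after their values were seen. Of related lists, up to 3 genes per direction by p are named, and others (Tarsl2, Gatb, Qrsl1, Aimp1, Aimp2, Eef1e1, Cebpb, Aarsd1) were chosen after their values were seen. On simulated counts, tested over 11784 genes, edgeR found 65 of 67 genes with a 1.5-fold change, 70 of 71 with a 2-fold change and 62 of 62 with a 4-fold change, and called 14 unchanged genes. Only these genes were changed, up or down at random, with the same spread set for every gene. In the libraries themselves 67.2% of tested genes passed. The simulation therefore does not bear on the choice of scaling or on changes below 1.5-fold. The values of 1 member, which is counted in all totals, are not reported here or drawn in the figures. A planned comparison of protein sequences was not run, since no protein sequences were used here.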

Additional observations from a re-analysis of the deposited data

Results flagged for a closer look

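In 7 of 116 groups of 4 libraries examined, 1 library stood apart from the other 3 by a gap larger than Dixon's 95% limit for its share of the group's range, and chance alone marks about 1 in 20 groups. EA library 4 stood above the other EA libraries for Lars (0.951 of the range), Mars1 (0.939), Kars (0.938), Iars (0.894) and Lars2 (0.890), in CPM with TMM scaling. Control library 2 stood below the other Control libraries for Cars2 (0.850) and, with it, above them for the log2 ratio Cars/Cars2 (0.845).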

How the results depend on the processing

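All 37 members kept their call with RLE factors, DESeq2, limma voom and CPM above 1 in all libraries, and their direction too, except that Rars, which lay close to 0 and did not pass, turned just below 0 with CPM above 1 in all libraries. With library totals the number of higher members was 0 and the median of all members was −0.73, of cytosolic enzymes −0.75 and of mitochondrial enzymes −0.72; with upper-quartile factors it was 0 and −0.52, −0.54 and −0.51; and with limma on log2(FPKM + 1) it was 0 and −0.62, −0.74 and −0.54. The number of higher members, all or mitochondrial, was also 0 without a filter, at an adjusted p under 0.01 and, for mitochondrial enzymes, without Lars2. Library totals, upper-quartile factors and log2(FPKM + 1) moved the median of all tested genes by −0.36, −0.16 and −0.26. The 1 added to FPKM shrinks the changes of genes with low FPKM most. Mitochondrial enzymes had a median of 2.47 FPKM in EA and cytosolic enzymes one of 30.7. On that scale the medians of the 2 compartments therefore cannot be compared. Leaving out Lars2 was planned on the premise that it resembles mitochondrial ribosomal RNA, for which no match was found in GENCODE M21 transcripts. The annotation behind the counts is not given, so that search cannot settle the premise for the counted gene. With library totals 61.1% of all tested genes were lower. Beside this, 8 of 8 complex enzymes, 16 of 18 class I and 18 of 18 class II enzymes were lower. So were 12 of 12 charging partners, 10 of 12 ATF4 pathway genes and 9 of 10 mitochondrial partners. Rars, Qars, Dars and Hars reversed to −0.35, −0.33, −0.33 and −0.28 with library totals. On log2(FPKM + 1) they reversed to −0.34, −0.29, −0.32 and −0.27. Rars also reversed to −0.15 with upper-quartile factors. Cytosolic elongation factors reversed to a median of −0.15 with library totals and −0.15 on log2(FPKM + 1). Leaving out 1 library gave 25 to 26 lower and 0 to 1 higher members, with medians of −0.41 to −0.32. Over all tested genes 31.9 to 33.3% were lower in these fits. Cytosolic enzymes had 15 lower throughout and 0 higher, with medians of −0.43 to −0.34. Mitochondrial enzymes had 10 to 11 lower and 0 to 1 higher, with medians of −0.42 to −0.27. With 1 library left out, 4 to 5 pair ratios were below Control and 3 to 4 above it.

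Same-numbered EA and Control libraries did not deviate together (r = −0.021 to 0.027 over genes), so the numbers were not taken to pair libraries. With the replicate block 25 members were lower and 1 higher, beside 33.6% lower over all tested genes. Nars2 alone lost its call, at −0.35 (adjusted p = 0.0531). Standard errors were wide for Pars2 and Sars2, which have few reads.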
